A study of Mus musculus with 6 samples.

Results

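The 8 genes described here belong to the MAP kinase cascades or lie at their end: the kinase activators Map2k1, Map2k2 and Map2k4, the MAP kinases Mapk3, Mapk8 and Mapk14, and the transcription factor genes Creb1 and Atf2. They were chosen by name, and all 8 were found among the 770 genes of the panel and passed the count minimum of the test, a mean raw count of at least 20. The samples were melanomas of an engineered mouse line whose label includes BrafV600E, an activated allele of the kinase gene Braf, in control and treated groups alike. In both groups the tumours had been started by 4-hydroxy-tamoxifen painted on shaved back skin at 10 weeks of age. The treated group (4'-BR, 3 samples) received 4′-bromo-resveratrol, a resveratrol analogue that is known to inhibit Sirt1 and Sirt3, which remove acetyl groups from proteins, at 30 mg/kg of body weight into the peritoneum on 3 days a week for 5 weeks. For the control group (Control, 3 samples), the sources used here do not give the treatment, nor for either group the promoter that drives the recombinase or whether each sample was a separate mouse. All p-values therefore rest on the spread between samples, which may be technical. RNA was counted on the nCounter panel for mouse immune genes in cancer, which reads a barcode for each RNA molecule caught by a gene's probe, without amplification.

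In a MAP kinase cascade, a kinase of the MAP3K level phosphorylates a MAP2K, which phosphorylates a MAP kinase on a threonine and a tyrosine. Mutant Braf acts at the first level of the ERK branch, feeding Map2k1 and Map2k2 (MEK1 and MEK2) and through them the ERK kinases, among them Mapk3 (ERK1). The JNK and p38 branches answer mainly to stress and inflammatory signals. They reach Mapk8 (JNK1) and Mapk14 (p38α) through several MAP2K kinases, Map2k4 (MKK4) among them. Of the other listed MAP2K genes, Map2k3, Map2k5, Map2k6 and Map2k7, none was found on the panel. Atf2 is a direct substrate of JNK and p38, and Creb1 is phosphorylated by kinases that ERK and p38 switch on. The activity of all these proteins is set largely by phosphorylation, which an RNA count does not measure.

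Treated samples were counted less deeply than control samples, with total counts of 118221 to 254862 against 322485 to 472402. Levels below are counts scaled by the geometric mean of the 20 housekeeping probes, brought to the level of the authors' deposited values. The lowest raw count of any of the 8 genes was 103, in sample 4'-BR 3, where the brightest negative control probe read 8. Probes differ in how well they catch their target, so levels were compared between samples and not between genes. In whole tumours, fewer cells of a type and less RNA per cell cannot be told apart. Of the listed melanocyte markers the panel measured Mcam, S100b and Cdh1, none at 0. The pigment genes Tyr, Pmel, Dct, Tyrp1 and Mlana and the listed markers Mitf and Sox10 were not found on the panel under these names. The 3 genes measured, of which Cdh1 is also a listed keratinocyte marker, do not check the tumour label.

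None of the 8 genes passed the test between treated and control tumours. Most of them lay close to the control level, and Creb1 and Mapk14 stood apart in opposite directions, at 1.53-fold lower and 1.35-fold higher in treated samples. With edgeR's quasi-likelihood test 0 of the 8 had an adjusted p under 0.05, against 6.93% of the 548 genes tested (5.66% lower and 1.28% higher). At an unadjusted p under 0.05 there were 2 of 8, against 23.4% of all genes. DESeq2 called 1 of the 8, Creb1, against 12.6% of all genes, and limma on the authors' normalized values called 0, against 1.64%. In 3 of the 8 genes (Creb1, Mapk14 and Map2k2) the treated samples did not overlap the controls, against 30.5% of the genes tested, a share of the 8 near that of the panel. The median log2 fold change of the 8 was 0.062, and that of all genes tested was −0.038.

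**Figure D1:**
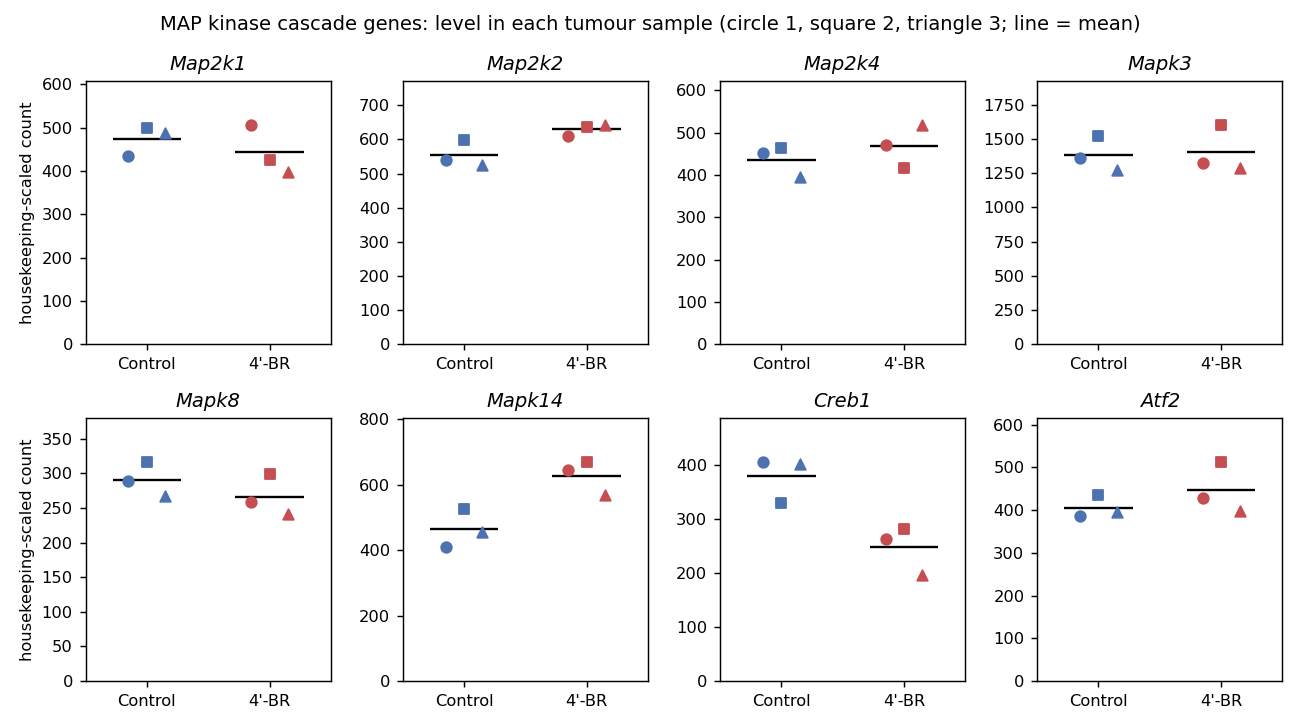
Housekeeping-scaled count (vertical axis, from 0) of the 8 genes in the 3 Control and 3 4'-BR samples. Each point is a sample, its shape gives the replicate number, and the line is the group mean; Creb1, Mapk14 and Map2k2 are the genes whose groups do not overlap, and in the other 5 the groups overlap.

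Creb1 (GRCm38.p6, chromosome 1, 64532794 to 64604548) encodes the transcription factor that binds cyclic AMP response elements (CRE). Its scaled counts were 407, 329.9 and 403 in Control samples 1 to 3 and 264, 282 and 197 in 4'-BR samples 1 to 3. Every treated sample lay below every control sample, and the nearest neighbours across the gap were Control 2 and 4'-BR 2. The group levels were 379.8 ± 43.3 and 248 ± 44.9 scaled counts (SD, n = 3 each), a log2 fold change of −0.61 (SE 0.19, 95% interval −1.03 to −0.19). The unadjusted p was 0.00859 and the edgeR adjusted p 0.072. DESeq2 with the same scaling gave an adjusted p of 0.0431. An exact permutation test of the 6 log2 levels gave a two-sided p of 0.1, below which 3 against 3 samples cannot go.

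Mapk14 (chromosome 17, 28691342 to 28748405) encodes p38α, the main p38 kinase of stress and cytokine signalling. Control samples 1 to 3 stood at 409, 527 and 455 scaled counts, and treated samples 1 to 3 at 645, 671 and 568. All treated values were higher than all control values, and Control 2 and 4'-BR 3 came nearest to each other. The group levels were 463 ± 59.6 and 628 ± 53.4 (SD, n = 3 each), a log2 fold change of 0.44 (SE 0.16, 95% interval 0.077 to 0.80, unadjusted p = 0.0225, edgeR adjusted p = 0.135, exact permutation p = 0.1). Scaled by total count, which moved the median of all genes to 0.12, Mapk14 was at 0.59 and passed (adjusted p = 0.0374), as did 10.9% of all genes. Scaled by the positive control probes, synthetic RNAs added in fixed amounts, the median of all genes was −0.67 and Mapk14 was at −0.21 (adjusted p = 0.512), so its direction against control turned while it stayed above that median.

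The upstream sequences of these 2 genes are shown because theirs were the largest differences among the 8, and because CRE sites would be the recognition sequence of Creb1 itself and of Atf2. Each is the 250 bases before an annotated start of transcription in the RefSeq table of GRCm38.p6, on the gene's strand, both of them plus: chr1:64532554-64532803 for Creb1 and chr17:28691092-28691341 for the first of 2 Mapk14 starts. Capitals mark the GC box GGGCGG on either strand, and the CRE half-site TGACG would be marked too.
Creb1: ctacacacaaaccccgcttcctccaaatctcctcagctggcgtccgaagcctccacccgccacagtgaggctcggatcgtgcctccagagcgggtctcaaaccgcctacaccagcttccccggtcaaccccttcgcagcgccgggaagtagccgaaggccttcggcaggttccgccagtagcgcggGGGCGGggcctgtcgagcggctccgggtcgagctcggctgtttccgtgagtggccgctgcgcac
Mapk14: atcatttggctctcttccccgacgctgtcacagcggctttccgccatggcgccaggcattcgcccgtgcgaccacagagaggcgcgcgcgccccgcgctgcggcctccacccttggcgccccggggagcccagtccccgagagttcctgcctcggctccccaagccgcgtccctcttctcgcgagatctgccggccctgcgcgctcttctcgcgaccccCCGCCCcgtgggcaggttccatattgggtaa
Both windows held 1 GC box, a motif found in 32.7% of the 32851 upstream windows of the table, and neither held TGACG. Of the 7 members with an entry in the table, Map2k1, Map2k4 and Mapk8 held TGACG at a start site, Map2k4 and Mapk8 only at the first of 2. TGACG was found in 17.8% of all windows, a share per window and not per gene. The full element TGACGTCA, in 1.55% of all windows, and the AP-1 motif TGANTCA, in 6.75%, were found in none of the 7. Motifs were searched on both strands, TGACG lies within TGACGTCA, and a match or its absence describes these letters in this window. Mapk3 was not matched.

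The ERK branch begins below Braf with the MEK genes. Map2k1 (MEK1; chromosome 9, 64185769 to 64253605) stood at 435, 498 and 487 scaled counts in control and 507, 427 and 398 in treated samples. The groups overlapped, with 4'-BR 1 the highest of all 6 samples and 4'-BR 3 the lowest, and the log2 fold change was −0.091 (SE 0.16, 95% interval −0.45 to 0.27, edgeR adjusted p = 0.726). Map2k2 (MEK2; chromosome 10, 81105913 to 81124697) stood at 539.7, 599 and 527 in control and 609, 637 and 643 in treated samples. Here all treated samples were higher, by a small margin between Control 2 and 4'-BR 1. The treated samples differed little among themselves (629.6 ± 18.1, against 555 ± 38.3 in control), and the log2 fold change was 0.18 (SE 0.14, 95% interval −0.14 to 0.50, adjusted p = 0.467, exact permutation p = 0.1). With positive control scaling Map2k2 was at −0.45.

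Mapk3 (chromosome 7, 126759626 to 126765816), which encodes ERK1, showed the smallest difference of the 8. Its scaled counts were 1359, 1522 and 1272 in control and 1325, 1603 and 1291 in treated samples. Sample 2 was the highest in both groups, and the group levels of 1384 ± 127 and 1406 ± 171 differed by far less than either spread (log2 fold change 0.023, SE 0.16, 95% interval −0.33 to 0.38, edgeR adjusted p = 0.934). Without Control 3 or without 4'-BR 2 its sign turned (−0.035 and −0.081).

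Among the activators of the JNK and p38 branches is Map2k4 (chromosome 11, 65688244 to 65788359). Its scaled counts were 452, 463 and 395 in control and 469.6, 417 and 518 in treated samples. Control 3 was the lowest and 4'-BR 3 the highest sample, 4'-BR 2 lay among the controls, and the log2 fold change was 0.10 (SE 0.16, 95% interval −0.25 to 0.46, edgeR adjusted p = 0.701). Mapk8 (chromosome 14, 33377898 to 33447353), the gene of JNK1, was at 289, 317 and 267 in control and 259, 299.7 and 241 in treated samples. These groups also overlapped (log2 fold change −0.13, SE 0.16, 95% interval −0.49 to 0.24, adjusted p = 0.641). Atf2 (chromosome 2, 73816509 to 73892677), a transcription factor that JNK and p38 activate, was at 387, 436 and 395 in control and 429, 514 and 398 in treated samples. Only 4'-BR 2 exceeded the highest control, and the log2 fold change was 0.14 (SE 0.16, 95% interval −0.22 to 0.50, adjusted p = 0.615).

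For the 6 genes other than Creb1 and Mapk14, no 95% interval reached further than 0.50 log2 units (1.42-fold) from 0 in either direction. These intervals are not adjusted for the number of genes and cover only the scaling used. As a yardstick, the 20 housekeeping genes had log2 fold changes from −0.38 (Alas1) to 0.37 (Sdha) in the same fit. Of the 8 genes, 2 lay outside that range, Creb1 below and Mapk14 above. Among all 548 genes tested its ends lay at percentiles 25 and 85.2 of the log2 fold change, so many other genes lay outside it too. The same 20 genes set the scaling, which holds their range around 0.

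**Figure D2:**
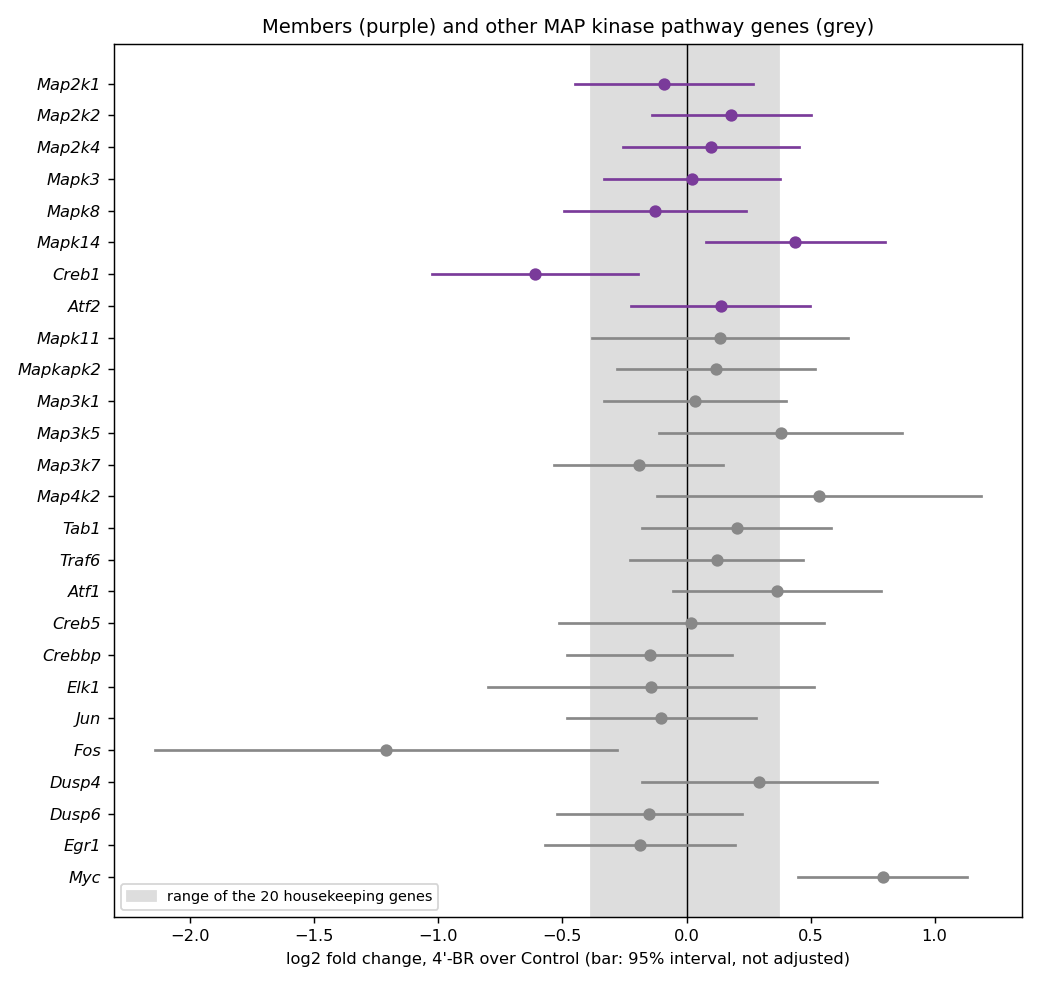
Log2 fold change of 4'-BR over Control (horizontal axis) for the 8 genes (purple) and 18 other genes of the pathway (grey), with points for the edgeR estimate and bars for its unadjusted 95% interval. The grey band spans the 20 housekeeping genes, −0.38 to 0.37; Creb1 at −0.61 and Mapk14 at 0.44 are the purple points outside it.

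The ratio of 2 genes within a sample does not depend on how samples are scaled, and 5 such ratios were compared between groups (exact permutation tests, two-sided, adjusted over the 5), of which 4 are given here. The log2 ratio of Creb1 to Atf2 was 0.073, −0.40 and 0.027 in control and −0.70, −0.86 and −1.01 in treated samples. No treated sample reached the control range, and the difference was −0.75 (SE 0.18, exact p = 0.1, adjusted p = 0.333). Map2k1 to Map2k2 averaged −0.23 ± 0.10 and −0.51 ± 0.22 (exact p = 0.2, adjusted p = 0.333), with 4'-BR 1 inside the control range. Mapk14 to Mapk11, which encodes p38β, averaged 2.72 ± 0.33 and 3.03 ± 0.16 (exact p = 0.3, adjusted p = 0.375). Map2k4 to Mapk8 averaged 0.58 ± 0.053 and 0.81 ± 0.31 (exact p = 0.4, adjusted p = 0.4), the treated samples lying on both sides of the controls. No adjusted p could fall below 0.1 in this design.

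**Figure D3:**
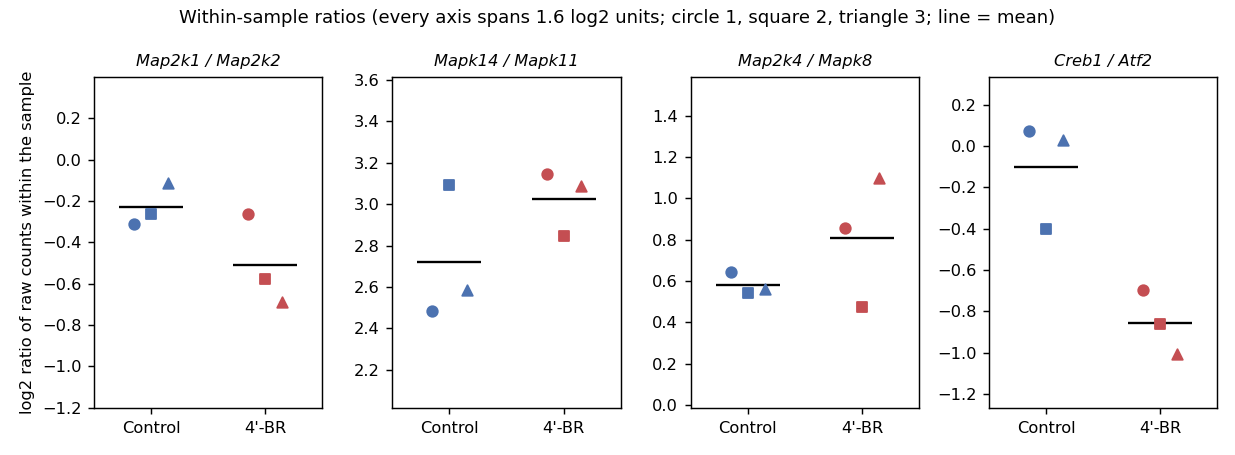
Log2 ratio of raw counts of 2 genes within each sample (vertical axes, each spanning the same number of log2 units) for 3 Control and 3 4'-BR samples, with the group mean as a line. For Creb1 over Atf2 the treated points (−0.70 to −1.01) lie below all control points, and in the other 3 panels the groups overlap.

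Set against each other in all 28 pairings, a comparison added after the values were seen, 14 pairs had within-sample ratios that did not overlap between groups, as had 32.9% of all pairs of tested genes. The pairs share genes and are not independent. Creb1 was in 6 of its 7 pairs among them and Mapk14 in 6 of its 7, and without both genes 3 of 15 pairs remained. The widest pair was Mapk14 against Creb1, whose log2 ratio was 1.06 higher in treated samples.

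Within each group, the 8 genes partly shared the order of the samples. Within the control group, Control 2 held the highest level for 7 of 8 genes, all but Creb1, for which it was the lowest. Among treated samples 4'-BR 2 was highest for 5 and 4'-BR 3 lowest for 6. The same counts over all genes tested are not given here, so whether this order is particular to the 8 cannot be told. By the distance between centred log2 profiles over the 6 samples, in which scaling all but cancels, the closest members were Mapk3 and Atf2 (root mean square distance 0.072 log2 units) and Mapk3 and Mapk8 (0.078), and the farthest were Mapk14 and Creb1 (0.58). Among all 548 tested genes the nearest to Creb1 were the interferon-inducible gene Ifitm2 (0.094) and Mrc1, the mannose receptor of macrophages (0.11, log2 fold change −0.73, edgeR adjusted p = 0.0387). Nearest to Mapk14 were the kinase genes Ikbkb (0.073) and Jak2 (0.10), to Map2k1 Atm (0.041) and Kdr (0.081), to Mapk8 the receptor genes Ifngr1 (0.037) and Tnfrsf1a (0.051), and to Map2k2 Reps1 and Irf3 (0.048 each). Mapk3 lay nearest to Chuk (0.064) and Ep300 (0.066), Atf2 to Chuk (0.052) and Oaz1 (0.061), and Map2k4 to Tfe3 (0.061) and Traf6 (0.071). These distances describe 6 samples and carry no test.

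Markers of several cell types differed between the same groups. After housekeeping scaling the 6 measured fibroblast markers of 8 listed summed to 24141 to 33381 counts in control and 10807 to 15879 in treated samples. Of these, 5 of the 6 were called lower by edgeR. Among all genes tested, 5.66% were called lower and 1.28% higher. The 8 macrophage markers summed to 2343 to 2975 and 1335 to 1849 (4 of 8 lower), and 4 neutrophil markers to 2922 to 4749 and 1186 to 1925 (1 of 3 tested lower). Keratinocyte markers differed the other way, with sums of 3282 to 3805 and 4931 to 5704 over 4 of 8 listed genes (2 called higher). Melanocyte markers (3 of 10 listed, sharing Cdh1 with the keratinocyte list) summed to 3382 to 3727 and 3144 to 3937, and none was called. Their log2 fold changes ran from −0.59 to 0.51, so the sum combines opposite differences. Endothelial markers (6 of 6) summed to 989.7 to 1074 and 513 to 1108, and none was called. T cell markers (6 of 7 listed) summed to 103 to 159 and 134 to 243, and B cell markers (4 of 4) to 13.4 to 19.4 and 15.6 to 19.03. No listed marker on the panel was at 0 in any sample. The part of these differences in the levels of Creb1 and Mapk14 was not tested.

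Upstream of the 8 genes no gene passed the test. Of 18 listed MAP3K and MAP4K kinases and adaptors 13 were tested, and 0 were called in either direction by edgeR. At an unadjusted p under 0.05 in the same fit there were 0, against 23.4% of all genes. Their median log2 fold change was 0.12, with a range of −0.19 to 0.53. The lowest p was that of Traf2, an adaptor of TNF receptors (log2 fold change 0.35, adjusted p = 0.256), followed by that of the adaptor Myd88 (log2 fold change 0.40, adjusted p = 0.303). Map3k7 (TAK1), which feeds JNK and p38, was at −0.19, and Map4k2, a kinase above JNK, at 0.53 (SE 0.29), the highest of the list. Of the RAS and RAF list the panel held Hras and Kit, a receptor upstream of RAS. Hras stood at 14.7 ± 3.61 and 18.7 ± 2.05 scaled counts, under the count minimum, and Kit was at 1.04 (adjusted p = 0.244) and at 0.28 without 4'-BR 2.

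Of the other MAP kinases and their substrates, 4 of 17 listed genes were measured and tested, and 0 were called. By edgeR 1 of the 4 had an unadjusted p under 0.05, against 23.4% of all genes. Among them were Mapk11 (0.14), Mapkapk2, the kinase that p38 activates (0.12), and Rps6, a ribosomal protein phosphorylated downstream of ERK (−0.12). Among 15 tested transcription factors that MAP kinases phosphorylate 0 were called by edgeR, with a median of 0.12. At an unadjusted p under 0.05 there were 4 of 15, a share near the 23.4% of all genes. DESeq2, with 12.6% of all genes called, called 3 of them, Fos, Nfatc1 and Nfatc2. In edgeR's fit Nfatc1 was at 0.64 (adjusted p = 0.0681) and Nfatc2 at 0.79 (adjusted p = 0.072). Both were called under TMM, median-of-ratios and total count scaling, and with positive control scaling they were at −0.0076 and 0.14. Those nearest in kind to Creb1 and Atf2 were Atf1 at 0.36 (90.4 ± 4.82 and 117 ± 10.9 scaled counts, no overlap, adjusted p = 0.28, turning to −0.28 with positive control scaling), Creb5 at 0.020 and the co-activator Crebbp at −0.15.

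Genes that ERK signalling induces were measured for 7 of 18 listed, and 1 was called higher by edgeR, against 1.28% of all genes tested. Myc, a growth regulator, stood at 369.9, 429 and 392 scaled counts in control and 755, 639 and 666 in treated samples (log2 fold change 0.79, SE 0.15, edgeR adjusted p = 0.0356). It was not called without any 1 of 5 samples in turn, with limma, or with positive control scaling, where it was at 0.17. The phosphatase genes Dusp6 (−0.15, SE 0.17) and Dusp4 (0.29, SE 0.21), feedback inhibitors of ERK, and Egr1 (−0.19) did not pass, and the list median was −0.15. Egr3, an immediate early gene, was at 0.61 (edgeR adjusted p = 0.0511, DESeq2 0.0271), and its relative Egr2 at −0.44 (edgeR adjusted p = 0.288), each with no overlap between groups. Egr3 was called under TMM, median-of-ratios, total count and median housekeeping scaling, and was at −0.0090 with positive control scaling. Of the CREB target list 3 of 16 genes were tested and 0 called by edgeR (2 at an unadjusted p under 0.05, against 23.4% of all genes), and by DESeq2 Fos alone (adjusted p = 0.0197). They were Fos, also on the 2 lists before, at −1.21 (SE 0.42, adjusted p = 0.111), Ptgs2, the prostaglandin synthase COX-2, at −0.90 (adjusted p = 0.111) and Bcl2 at 0.30 (adjusted p = 0.423). Fos rested on Control 3, with 455, 424 and 1319 scaled counts in control and 407, 281 and 254 in treated samples, and was at −0.48 without it.

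How the samples were scaled set the level of all 8 genes together. Housekeeping scaling, its median version, TMM and median of ratios placed Creb1 between −0.61 and −0.58 and Mapk14 between 0.44 and 0.49. Total count scaling placed Creb1 at −0.47 (edgeR adjusted p = 0.109) and Mapk14 at 0.59. Positive control scaling, under which the housekeeping genes themselves were lower in treated samples, gave negative values for all 8, from −0.21 for Mapk14 to −1.24 for Creb1, and called 4 of them, against 44.5% of all genes.

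**Figure D4:**
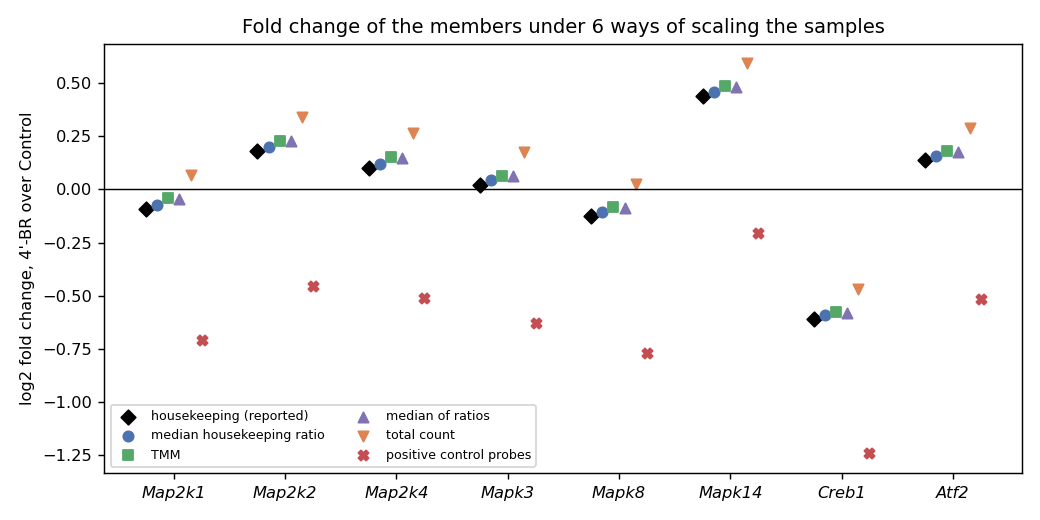
Log2 fold change of 4'-BR over Control (vertical axis) for the 8 genes (horizontal axis) under 6 ways of scaling the samples, 1 point each. Positive control scaling places all 8 genes below 0, and each scaling shifts the 8 genes by about the same amount.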

How the data were processed

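Raw values deposited by the authors are barcode counts, per the file headers, for 750 endogenous, 20 housekeeping, 6 positive and 8 negative probes, and 1 blank row was left out. The labels' protocol counts 730 immune and 40 housekeeping genes instead; the classes of the file were used, and a set of 40 was not tested. Their second deposited table gives 1 normalized score for each gene. All of its 770 values lay within 1 of the raw count times a sample factor from the geometric mean of the housekeeping probes, in all 6 samples. The sources used here do not give the software behind either table. The 548 genes whose raw counts averaged 20 or more were fitted together with edgeR 4.0.16 in R 4.3.3 (glmQLFit, glmQLFTest), with housekeeping scaling, no block and Benjamini-Hochberg adjustment (threshold 0.05, two-sided). One gene of a pathway list and a ratio that uses it are not reported here. The SE was derived from the F statistic. The fit was tested on simulated data. Within-sample ratios, distances and permutation tests used log2 of the count plus 1. Replicates of a group differed by more than counting noise (chi-square over its degrees of freedom between 6.32 and 20.4), and none was treated as a duplicate. Alternatives were other scalings, count minimums, DESeq2 1.42.0, limma 3.58.1, subtraction of the negative probes, a replicate block, and each sample left out. Thinned counts, the median housekeeping ratio and the 28 pairings were added after seeing the data. Named were all 8 members, the lowest-p and other genes of 6 pathway lists, 2 nearest profiles per member and the marker lists. The members and lists were chosen with earlier results of these data known. Probe targets of all 8 matched the RefSeq table of GRCm38.p6 under the same symbol.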

Additional observations from a re-analysis of the deposited data

How the results depend on the processing

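Of 144 recomputed member values (18 alternatives), 130 kept their direction and their side of the threshold, 6 newly passed and 9 changed sign, with 1 (Mapk3, positive control scaling) among both. With positive control scaling Map2k1 (−0.71), Mapk8 (−0.77), Creb1 (−1.24) and Mapk3 (−0.63, adjusted p = 0.049) newly passed, and Mapk3, Map2k2 (−0.45), Map2k4 (−0.51), Mapk14 (−0.21) and Atf2 (−0.51) changed sign. With total count scaling Map2k1 (0.066) and Mapk8 (0.025) changed sign and Mapk14 (0.59) newly passed, and with DESeq2 Creb1 (−0.61) did. With single samples left out Mapk3 ranged from −0.081 to 0.097, Creb1 from −0.71 to −0.48 (edgeR adjusted p 0.086 to 0.177) and Mapk14 from 0.36 to 0.54 (0.135 to 0.298).

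The number of genes called, 38, became 60 with total count scaling, 244 with positive control scaling, 69 with DESeq2 and 9 with limma on the authors' values, and ranged from 0 to 35 with single samples left out (edgeR; 107 and 116 genes at an unadjusted p under 0.05 in the 2 cases with 0 calls, without 4'-BR 1 and without 4'-BR 2). It was 1 without Control 1 or without 4'-BR 3 and 7 without Control 2. The split of 7 higher and 31 lower became 30 and 30 under total count, 19 and 36 under TMM, 19 and 37 under median-of-ratios and 1 and 243 under positive control scaling. List medians moved beyond the spread between replicates with positive control scaling, to −0.50 for the upstream kinases, −0.63 for the other MAP kinases, −0.51 for the transcription factors, −0.78 for ERK outputs and −1.50 for CREB targets. Total count scaling moved the upstream kinases to 0.28 and the other MAP kinases to 0.16, and the CREB target median ranged from −1.08 to −0.48 with single samples left out. Apart from scaling, which shifts all genes of a sample together, the cause of these moves was not tested.

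Samples of the 2 groups share replicate numbers, and the sources used here do not say whether these mark pairs. Deviations of same-numbered samples correlated at −0.077, 0.075 and 0.21 over genes. With 3 samples per group these correlations cannot settle whether samples were paired. With the replicate block 30 genes were called and none of the 8, with Creb1 at −0.62 (adjusted p = 0.123), and not every sample correlated best with its own number. Depth and treatment cannot be told apart, since every treated sample had a lower total than every control. With counts thinned to the lowest total, Creb1 was at −0.57 and Mapk14 at 0.45.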
